A study of Homo sapiens with 12 samples.

Results

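TIE1, CD34, C3AR1, SIGLEC15, IL31RA and BANK1 are genes usually read out as marks of blood vessels or immune cells, and all 6 had more transcript in rhabdomyosarcoma cells given an siRNA against EHMT1. They were chosen by name because their counts were higher in that same comparison, so the rise itself is a description here and is not tested. The 6 genes were found by symbol among 61552 gene identifiers, each matched 1 identifier, and all 6 passed the filter on low counts that left 18646 genes. RD is an established line grown from a human embryonal rhabdomyosarcoma (FN-RMS by its label), a childhood tumour whose cells resemble immature skeletal muscle. It was transfected for 48 h with scrambled siRNA (n = 3 libraries) or with EHMT1-specific siRNA (n = 3 libraries), both in Lipofectamine RNAiMAX, and poly-A RNA was sequenced. EHMT1, also called GLP, is the partner of G9a in placing repressive methyl marks on lysine 9 of histone H3. The design gives a single cell line and a single named siRNA treatment at a single time, and the labels do not say whether replicates were separate cultures, so their spread may be technical. The SOX8 siRNA experiment of the series was not analysed here.

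The 6 genes belong to separate pathways. TIE1 is a receptor tyrosine kinase of endothelium that has no ligand of its own in most accounts and works through its relative TEK (TIE2), the receptor for angiopoietins. CD34 is a sialomucin on the surface of blood progenitors, endothelium and some muscle stem cells. C3AR1 is the G protein-coupled receptor for C3a, the fragment released when complement protein C3 is cleaved. SIGLEC15 is a sialic acid-binding receptor of osteoclasts and macrophages that signals through the adaptor DAP12 (TYROBP). IL31RA pairs with OSMR to form the receptor for interleukin-31. BANK1 is a cytoplasmic scaffold that links the kinase LYN to calcium release in B cells, and so is not a receptor. CD34 is better called a surface glycoprotein.

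RefSeq promoter entries (GRCh38.p14) were found for 5 of the 6 genes, and they do not share a promoter type. The 250 bases before the start are shown for TIE1 and CD34 because these lie at opposite ends of the range of CpG content at the same GC content of 61.6%, with each CG in capitals. For SIGLEC15 the capitals instead mark GGAA or its complement TTCC, the core word bound by ETS transcription factors, which are known for their part in vessel and blood cell genes. Sequences run 5′ to 3′ on the gene's strand. They lie at chr1:43300732-43300981 (plus strand), chr1:207911126-207911375 (minus strand) and chr18:45825425-45825674 (plus strand).
TIE1: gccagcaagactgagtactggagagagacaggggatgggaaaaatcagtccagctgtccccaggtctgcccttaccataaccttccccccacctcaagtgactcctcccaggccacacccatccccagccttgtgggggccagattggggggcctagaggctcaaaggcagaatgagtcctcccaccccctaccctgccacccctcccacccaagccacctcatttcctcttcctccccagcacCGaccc
CD34: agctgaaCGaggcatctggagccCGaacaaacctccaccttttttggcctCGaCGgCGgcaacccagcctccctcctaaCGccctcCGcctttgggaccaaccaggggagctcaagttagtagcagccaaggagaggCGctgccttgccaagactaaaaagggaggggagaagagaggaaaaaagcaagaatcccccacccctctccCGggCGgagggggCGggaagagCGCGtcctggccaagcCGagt
SIGLEC15: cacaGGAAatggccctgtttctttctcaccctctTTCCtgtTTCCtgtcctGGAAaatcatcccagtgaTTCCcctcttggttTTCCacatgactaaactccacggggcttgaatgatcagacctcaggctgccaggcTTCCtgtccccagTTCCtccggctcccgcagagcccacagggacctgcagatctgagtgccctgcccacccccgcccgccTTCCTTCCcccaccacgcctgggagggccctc

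The TIE1 window held 1 CG and the CD34 window 14, where the median over 35116 promoter windows of the same length was 11. C3AR1 also had 1 CG, at a GC content of 40.8%. SIGLEC15 had 6, and the 2 starts listed for BANK1 had 8 and 5. A count of 1 or fewer CG was found in 14.7% of all windows, and 14 or more in 44.8%. The SIGLEC15 window held 10 matches to GGAA on either strand, overlapping matches included, a count that 0.271% of all windows reached. The windows of TIE1, CD34 and C3AR1 held 4, 2 and 3 such matches and those of BANK1 held 6 and 1, against a median of 3, and 92.7% of all windows held at least 1. SIGLEC15 had the highest count of the windows found and is shown for it, so its rarity is that of a picked extreme. These are matches of letters, and no binding or methylation was measured.

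The siRNA target was lower where its label says so. EHMT1 was at 130.9, 155.9 and 130.1 CPM (gene counts scaled to a common library size) in scrambled replicates 1, 2 and 3, and at 53.2, 54.4 and 57.6 CPM in EHMT1 siRNA replicates 1, 2 and 3, 39.6% of the scrambled mean. edgeR gave a log2 change of -1.34 (SE 0.072) at an adjusted p of 9.13e-09, and a two-sided exact permutation of libraries had p = 0.1, the smallest value that 3 against 3 libraries allow. EHMT2 (G9a) was at 106.1 and 91.7 mean CPM, with an edgeR adjusted p of 0.0334 that was lost when any 1 EHMT1 siRNA library was left out. Each library held 40639655 to 47258481 gene counts. Scrambled replicate 2 stood apart, at -36.4 on the first principal component, where the other scrambled libraries had -15.98 and -9.16 and EHMT1 siRNA libraries lay between 19.6 and 21.6. It also had the highest mitochondrial share of counts, 5.41% against 4.29% to 4.83%. Its part in the results was not tested beyond leaving it out. All scrambled libraries were spread on the second principal component, at 31.3, -26.6 and 12.7 for replicates 1, 2 and 3. There the EHMT1 siRNA libraries lay between -6.78 and -3.92.

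Among the receptors, TIE1 had 3.63, 2.73 and 3.58 CPM in the scrambled libraries and 6.55, 8.15 and 7.89 CPM in the EHMT1 siRNA libraries, in the order of their replicate numbers. Scrambled replicate 2 was the lowest, and EHMT1 siRNA replicate 1 lay below the other EHMT1 siRNA libraries but above every scrambled one. The means were 3.31 ± 0.507 and 7.53 ± 0.855 CPM (SD, n = 3 each), a ratio of 2.27.

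C3AR1 was the most abundant of the 6. It had 20.6, 18.1 and 18.9 CPM with scrambled siRNA and 39.4, 36.5 and 36.7 CPM with EHMT1 siRNA. Within each group the libraries lay close together, with coefficients of variation of 6.61% and 4.38%, and the groups did not overlap. The means were 19.2 ± 1.27 and 37.5 ± 1.64 CPM (SD, n = 3 each), a ratio of 1.96. It rested on 723 to 1667 counts per library, against 52 to 338 for the other 5 genes.

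SIGLEC15 had the largest ratio with all 6 libraries, and the widest spread with scrambled siRNA. Without scrambled replicate 2 its fitted log2 change was 1.27, just under the 1.29 of IL31RA. Its scrambled libraries stood at 1.82, 1.40 and 2.496 CPM and its EHMT1 siRNA libraries at 4.97, 4.97 and 5.69 CPM. Scrambled replicate 3 was the highest of its group and scrambled replicate 2 the lowest, a coefficient of variation of 29%, against 8.001% with EHMT1 siRNA. The means were 1.90 ± 0.553 and 5.21 ± 0.417 CPM (SD, n = 3 each), a ratio of 2.73.

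IL31RA was the gene with the fewest counts, 52 to 66 per scrambled library and 124 to 149 per EHMT1 siRNA library. These gave 1.41, 1.43 and 1.22 CPM with scrambled siRNA and 3.10, 3.59 and 3.03 CPM with EHMT1 siRNA. Its groups were the furthest apart of the 6 genes: the lowest EHMT1 siRNA library was 2.12 times the highest scrambled one, where the other 5 genes had 1.77 to 1.99. The means were 1.35 ± 0.112 and 3.24 ± 0.307 CPM (SD, n = 3 each), a ratio of 2.39.

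The surface glycoprotein and the scaffold moved by about the same ratio. CD34 had 2.63, 3.15 and 3.01 CPM with scrambled siRNA and 6.06, 6.68 and 6.37 CPM with EHMT1 siRNA. Unlike TIE1, C3AR1, SIGLEC15 and BANK1, it was highest, not lowest, in scrambled replicate 2 within that group. Its means were 2.93 ± 0.272 and 6.37 ± 0.310 CPM (SD, n = 3 each), a ratio of 2.17. BANK1 had 2.01, 1.68 and 1.72 CPM with scrambled siRNA and 4.05, 3.83 and 3.76 CPM with EHMT1 siRNA. The groups of BANK1 libraries were clearly apart, with means of 1.80 ± 0.181 and 3.88 ± 0.148 CPM (SD, n = 3 each) and a ratio of 2.15.

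**Figure D1:**
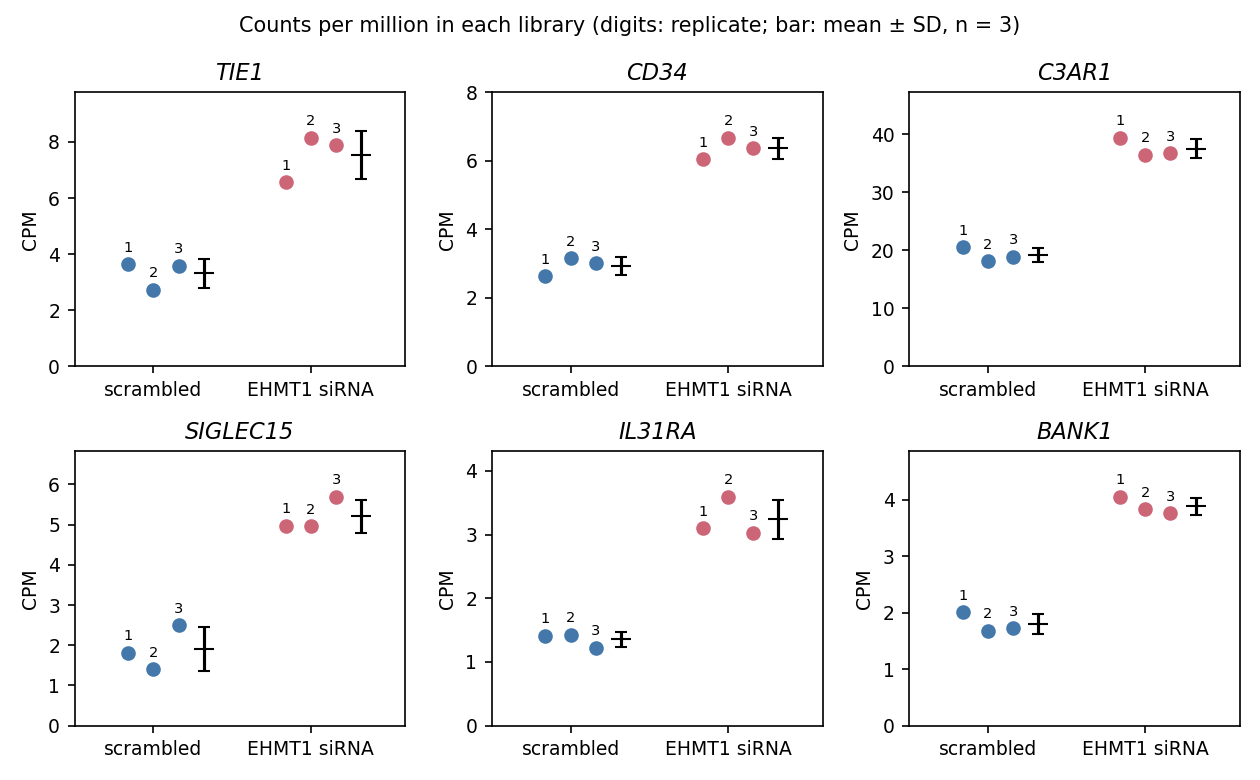
CPM (vertical axis, from 0) of the 6 genes in each library; points are libraries with their replicate number, and the bar beside them is the mean ± SD (n = 3). In all 6 panels the EHMT1 siRNA libraries lie above the scrambled ones, with the narrowest gap relative to the level for C3AR1 (1.77 times) and the widest for IL31RA (2.12 times).

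All 6 genes passed the edgeR test and had no overlap between groups, which the way they were chosen makes uninformative. Of all tested genes, 5.81% rose and 6.54% fell (edgeR adjusted p under 0.05), and 15.4% had every EHMT1 siRNA library above every scrambled one. The fitted log2 fold changes were 1.45 (SE 0.18) for SIGLEC15, 1.26 (SE 0.17) for IL31RA, 1.18 (SE 0.14) for TIE1, 1.12 (SE 0.13) for CD34, 1.10 (SE 0.15) for BANK1 and 0.97 (SE 0.072) for C3AR1. From SIGLEC15 at rank 71 to C3AR1 at rank 261, all lay among the larger rises of the 18646 genes. At like abundance such rises were few: between 2.30 CPM, the mean of IL31RA over all 6 libraries, and 28.4 CPM, that of C3AR1, lay 5612 genes. Of those, 7.77% rose, 7.16% fell and 15 genes (0.267%) were at least 2-fold higher, among them 5 of the 6 genes described here. The exception was C3AR1, just under 2-fold. No threshold was part of the choice, but the 6 were picked as risen genes and their means set the range. Their share of these 15 genes thus follows from the choice and supports nothing.

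**Figure D2:**
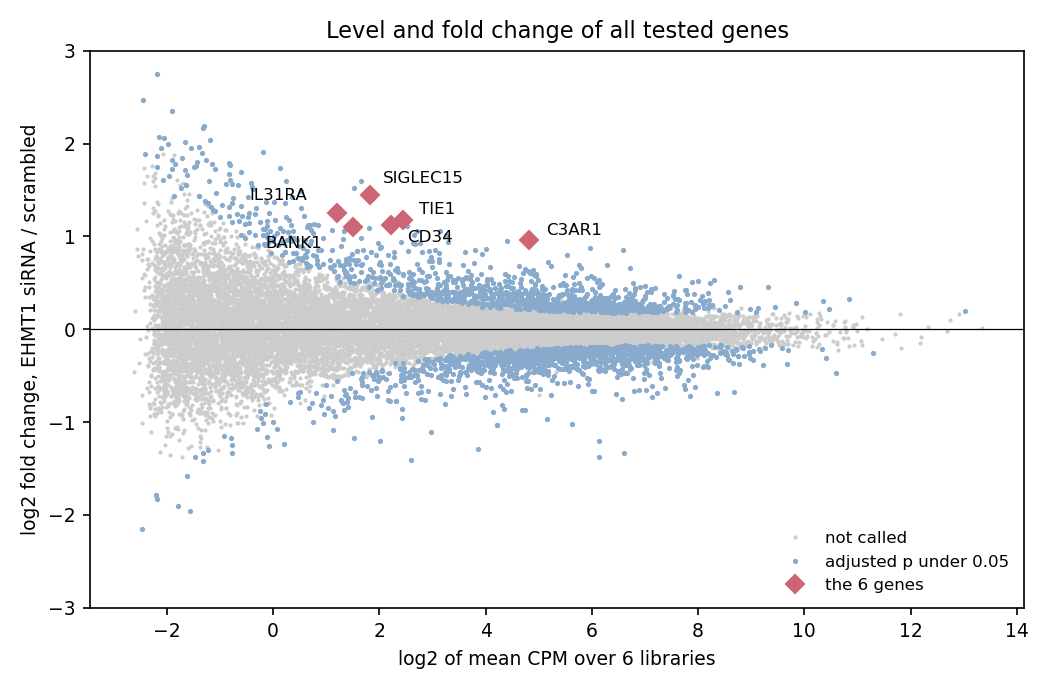
Fold change (log2, vertical axis) against mean level (log2 CPM, horizontal axis) for the 18646 tested genes; 1 gene, CD53, lies beyond the vertical range. The 6 genes (diamonds), chosen because they rose, sit at the upper edge of the cloud, C3AR1 furthest to the right at a mean of 28.4 CPM.

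Levels between genes are compared per kilobase of exon (RPKM, from TMM-scaled CPM and GENCODE release 29 exon lengths). With scrambled siRNA, C3AR1 was at 8.95 ± 0.591 RPKM (SD, n = 3), far above SIGLEC15 at 0.529 ± 0.154, TIE1 at 0.495 ± 0.0758, CD34 at 0.318 ± 0.0295, IL31RA at 0.296 ± 0.0246 and BANK1 at 0.293 ± 0.0294. The libraries of SIGLEC15 and TIE1 overlapped, as did those of CD34, IL31RA and BANK1 from 1 gene to the next. With EHMT1 siRNA the order was C3AR1 (17.5 ± 0.767 RPKM), SIGLEC15 (1.45 ± 0.116), TIE1 (1.12 ± 0.128), IL31RA (0.708 ± 0.0671), CD34 (0.691 ± 0.0337) and BANK1 (0.631 ± 0.0241). SIGLEC15 and TIE1 no longer overlapped, and the last 3 still did from 1 gene to the next. By mean CPM, C3AR1 lay above 63.1% of tested genes and the other 5 above 33.1% to 41.2%, so C3AR1 is not a gene of low level in these cells.

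Reads of the 6 genes fell mostly on the strand column that holds most reads of other genes. The kit is not described as directional, but the last of the file's 3 count columns held 87.1% to 89.0% of the strand counts of each library. Over the 6 libraries that column held 89.0% of the strand counts of TIE1, 94.0% for CD34, 96.9% for C3AR1, 90.4% for SIGLEC15, 96.2% for IL31RA and 96.7% for BANK1; the median tested gene was at 92.6%. In that column alone the log2 fold changes were 1.13 for TIE1, 1.12 for CD34, 0.98 for C3AR1, 1.49 for SIGLEC15, 1.23 for IL31RA and 1.10 for BANK1. Annotated genes that overlap CD34 (1, antisense) and BANK1 (3) together had 2 counts in all 6 libraries, while TIE1, C3AR1, SIGLEC15 and IL31RA overlapped none.

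The label of the cells was checked against fixed markers. Of 7 skeletal muscle markers, MYF5 had 0 counts in every library and the other 6 were tested, with a summed level of 1213 to 1386 CPM in scrambled and 1358 to 1422 CPM in EHMT1 siRNA libraries. MYOD1, the master regulator of muscle fate, was at 151.4 and 154.8 mean CPM, MYOG at 49.5 and 44.9, and the filament gene DES at 311.4 and 298.5 (edgeR adjusted p = 0.823, 0.315 and 0.673). PAX7, a transcription factor of muscle stem cells, rose from 57.7 to 69.9 mean CPM (log2 change 0.28, edgeR adjusted p = 0.00580), but not when EHMT1 siRNA replicate 3 was dropped (0.0531). The acetylcholine receptor subunit CHRNA1 was at 638.1 and 716.0 mean CPM, without overlap between groups (0.17, edgeR adjusted p = 0.0566). In the wider list of muscle lineage genes, 8 of 32 tested rose and 0 fell by edgeR (3 fell at an unadjusted p under 0.05; DESeq2 called 10 risen and 1 fallen, limma-voom 9 and 0), with a median log2 change of 0.09. They included CHRNG at 0.83 and CHRND at 0.41, acetylcholine receptor subunits, and the myosin light chain genes MYL1 at 0.59 and MYL4 at 0.90 (edgeR adjusted p from 1.32e-05 to 0.004001). Without scrambled replicate 1, 3 of the list fell. The list's 25.0% risen stands beside 5.81% risen and 6.54% fallen over all tested genes.

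Most markers that define the foreign cell types were at a few counts or 0, but not all. Of 8 endothelial markers, PECAM1 had 0 to 6 counts per library, CDH5 0 to 10, KDR 1 to 9, ERG 3 to 13, VWF 6 to 20 and EMCN 0 to 4, where 3 counts equal 0.0641 to 0.0751 CPM. Their summed level was 17.99 to 19.5 CPM in scrambled and 18.3 to 20.1 CPM in EHMT1 siRNA libraries, mostly TEK at 16.1 to 17.9 CPM, above TIE1 and CD34, with CLDN5 at 1.00 to 1.70 CPM. The 8 general leukocyte markers summed to 8.61 to 11.5 CPM in scrambled and 10.1 to 13.1 CPM in EHMT1 siRNA libraries, mostly CORO1A at 6.88 to 9.98 CPM, and TYROBP was at 0 in all 6. Of 5 B-cell markers, MS4A1 had 0 counts in all 6 libraries, and the 5 together held 0.107 to 0.188 CPM in scrambled and 0.0482 to 0.122 CPM in EHMT1 siRNA libraries. The 3 T-cell markers together held at most 0.122 CPM. Of 4 monocyte and macrophage markers, CD163, AIF1 and FCGR3A had 0 counts in all 6 libraries, and CD14 was at 0.837 and 0.610 mean CPM (edgeR adjusted p = 0.381). In bulk RNA, more cells of a type and more RNA per cell cannot be told apart.

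A few further leukocyte genes had more counts with EHMT1 siRNA. Of 40 such genes, 11 had no count in any library and 11 were tested; 3 rose and 0 fell by edgeR (0 fell at an unadjusted p under 0.05, and 0 by DESeq2 or limma-voom), where the background was 5.81% risen. The filter on low counts (0.241 CPM in 3 libraries) bears on this count. While 8 of the 11 reached it in all 3 scrambled libraries, CD53, ITGAX and NKG7 passed with the help of the EHMT1 siRNA libraries. The list's count and median are therefore no measure of the list as a whole. CD53 and ITGAX were among the 3 risen genes, so their calls support no rise and their adjusted p values are left out. HCLS1, a cytoskeletal adaptor of blood cells, was at 0.509 and 1.32 mean CPM (log2 change 1.37, edgeR adjusted p = 0.00406). ITGAX, the integrin CD11c, was at 0.258 and 0.882 mean CPM (log2 change 1.77). CD53, a tetraspanin, had 0 counts in the 3 scrambled libraries and 13, 10 and 17 in the EHMT1 siRNA libraries. Against a floor of 3 counts per scrambled library it was at least 4.59-fold higher. The filter of at least 1 CPM in 3 libraries removed CD53 and ITGAX, and DESeq2 gave them no adjusted p. Both ways 1 gene of the list was called, HCLS1. With a scrambled mean of 0.509 CPM, HCLS1 itself could pass the filter of 1 CPM only with the help of EHMT1 siRNA libraries. ITGB2 was at 0.62 (edgeR adjusted p = 0.206), and its pan-leukocyte companion PTPRC had 2 to 9 counts per library. The summed level of the list was 12.4 to 16.6 CPM in scrambled and 16.5 to 19.6 CPM in EHMT1 siRNA libraries. The part of leukocyte transcripts in the levels of the 6 genes was not tested.

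TIE1 and CD34 were set beside other endothelial genes, which moved both ways. Of 51 such genes 29 were tested, 4 rose and 3 fell (13.8% and 10.3%), and the median log2 change was -0.01. The shares over all tested genes were 5.81% risen and 6.54% fallen, and their median was 0.001. MMRN2, a matrix glycoprotein of vessels, was at 2.84 and 5.23 mean CPM (log2 change 0.88, edgeR adjusted p = 0.000269), and the guidance receptor ROBO4 at 3.14 and 5.04 (0.69, edgeR adjusted p = 0.00518). The other risen genes, named after their values were seen, were the peptide receptor CALCRL at 0.43 and the semaphorin and VEGF co-receptor NRP1 at 0.24. ANGPT2 fell, with 71.8, 83.2 and 63.3 CPM in scrambled and 49.1, 55.0 and 46.1 CPM in EHMT1 siRNA libraries (log2 change -0.54, edgeR adjusted p = 0.000666). It encodes an angiopoietin that modulates TEK. The lymphatic growth factor receptor FLT4 (-0.62, edgeR adjusted p = 0.00584) fell too, as did the transcription factor GATA2 (-0.41), which was picked out after seeing its value. The call of NRP1 was lost in strand column 4 and without scrambled replicate 3 or any 1 EHMT1 siRNA library, and those of CALCRL and GATA2 without EHMT1 siRNA replicate 2. Leaving out 1 library gave 2 risen endothelial genes without EHMT1 siRNA replicate 2 and 7 without scrambled replicate 2.

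TEK, the partner of TIE1, and the relatives of CD34 did not pass the test, unlike ANGPT2 above. TEK was at 16.7 ± 0.728 and 16.9 ± 0.917 CPM (SD, n = 3 each), and edgeR put the log2 change at 0.01 (SE 0.078, adjusted p = 0.956). ANGPT1, which activates TEK, had 0 to 6 counts per library and was not tested. PODXL and PODXL2, the other sialomucins of the CD34 family, had log2 changes of -0.08 each (edgeR adjusted p = 0.482 and 0.459), with libraries that overlapped.

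Complement genes had more rises than falls. Of 40 genes besides C3AR1, 18 were tested, 5 rose (27.8%) and 0 fell by edgeR (1 fell at an unadjusted p under 0.05; DESeq2 and limma-voom also called 5 and 0), with a median log2 change of 0.21. Over all tested genes 5.81% rose and 6.54% fell, with a median log2 change of 0.001. Some complement genes passed the filter on low counts with the help of the EHMT1 siRNA libraries, among them C8G and C5AR1, neither of them called. C8G (log2 change 1.57) reached it in no scrambled library. The median and the number tested are thus no measure of the list as a whole. Regulators of the cascade were among the risen complement genes. The chaperone CLU was at 250.2 and 305.3 mean CPM (log2 change 0.29), the C1 inhibitor SERPING1 at 16.8 and 21.2 (0.34) and the membrane regulator CD55 at 27.4 and 32.5 (0.25), with edgeR adjusted p from 0.00473 to 0.0173. The protease C1S, also risen at 0.83 (edgeR adjusted p = 0.0385), is named after its value was seen. Only CLU was still called whichever library was left out. The call of SERPING1 was lost without EHMT1 siRNA replicate 2 or 3, that of CD55 without any 1 EHMT1 siRNA library, and that of C1S in strand column 4 and without any 1 library other than scrambled replicate 3. Between 1 and 5 complement genes rose with 1 library left out, the fewest without EHMT1 siRNA replicate 2 or 3.

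The ligand source of C3AR1 did not pass the test. C3 was at 2.12 and 2.25 mean CPM (log2 change 0.09, SE 0.18, edgeR adjusted p = 0.808). C5AR1, the receptor for the related fragment C5a, had 10, 18 and 19 counts with scrambled and 32, 34 and 22 with EHMT1 siRNA. Its groups did not overlap, and its log2 change of 0.94 (SE 0.37) had an edgeR adjusted p of 0.110. C5AR2 had 0 to 4 counts per library and was not tested.

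Partners of SIGLEC15 were nearly absent. TYROBP, the adaptor DAP12, had 0 counts in all 6 libraries, which allows up to 0.0641 to 0.0751 CPM. The kinase SYK had 2 to 5 counts per library. Of 33 genes for Siglecs, DAP12 signalling and osteoclast differentiation, 9 had no count and 7 were tested, none of them another Siglec; 0 rose and 0 fell by edgeR (0 rose and 1 fell at an unadjusted p under 0.05), DESeq2 called 1 fallen and limma-voom none. For all tested genes edgeR called 5.81% risen and 6.54% fallen. The exchange factor gene VAV2 was at -0.18 on the log2 scale (edgeR adjusted p = 0.0654), ACP5, an osteoclast phosphatase, 0.40 (0.263), the transcription factor MITF -0.27 (0.294) and NFATC1 -0.13 (0.354).

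The other subunit of the interleukin-31 receptor was abundant and did not pass the test. OSMR was at 134.4 and 139.1 mean CPM (log2 change 0.05, SE 0.055, edgeR adjusted p = 0.628), and IL6ST, the shared subunit of this cytokine family, at 78.8 and 76.7 (-0.04, edgeR adjusted p = 0.741). Of 33 interleukin-6 family genes 30 were tested, 3 rose (10.0%) and 1 fell (3.33%), with a median log2 change of 0.05. All tested genes had 5.81% risen and 6.54% fallen. The cytokine IL11 was at 6.003 and 8.96 mean CPM (0.58, edgeR adjusted p = 0.00232) and LIFR, a receptor subunit, at 113.8 and 143.9 (0.34, edgeR adjusted p = 0.00746). IL27RA, a related receptor, fell (-0.41, edgeR adjusted p = 0.0424). LIFR did not pass when EHMT1 siRNA replicate 2 was dropped. The call of IL27RA held only when scrambled replicate 3 was the library left out. With 1 library left out 1 of the list rose when EHMT1 siRNA replicate 2 was the one dropped and 5 when it was scrambled replicate 2.

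Genes that work with BANK1 differed in direction. LYN, the kinase it binds, was at 3.999 and 2.97 mean CPM, a log2 change of -0.43 with SE 0.145 (edgeR adjusted p = 0.0637), and the groups did not overlap. PLCG2, the phospholipase of the same route, fell from 35.04 to 28.7 mean CPM (-0.29, edgeR adjusted p = 0.0119), which did not pass when EHMT1 siRNA replicate 1 or 3 was left out. The related scaffold PIK3AP1 was at -0.06 on the log2 scale (edgeR adjusted p = 0.815). Of 39 B-cell receptor signalling genes 19 were tested, 2 rose (10.5%) and 1 fell (5.26%), with a median log2 change of 0.02. Among all tested genes the shares were 5.81% and 6.54%. PIK3CG (log2 change 1.41, not called) passed the filter on low counts with the help of the EHMT1 siRNA libraries. The calcium channel ITPR1 was at 92.8 and 113.7 mean CPM (0.29, edgeR adjusted p = 0.00228), and the lipid kinase subunit PIK3CD at 1.98 and 3.08 (0.64, edgeR adjusted p = 0.0203). The call of PIK3CD was lost in strand column 4 and without scrambled replicate 1 or 3 or any 1 EHMT1 siRNA library, while BCL10 at 0.20 had an edgeR adjusted p of 0.0624. Without scrambled replicate 2, 4 of the list rose, and without scrambled replicate 3 or any 1 EHMT1 siRNA library, 1 did.

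**Figure D3:**
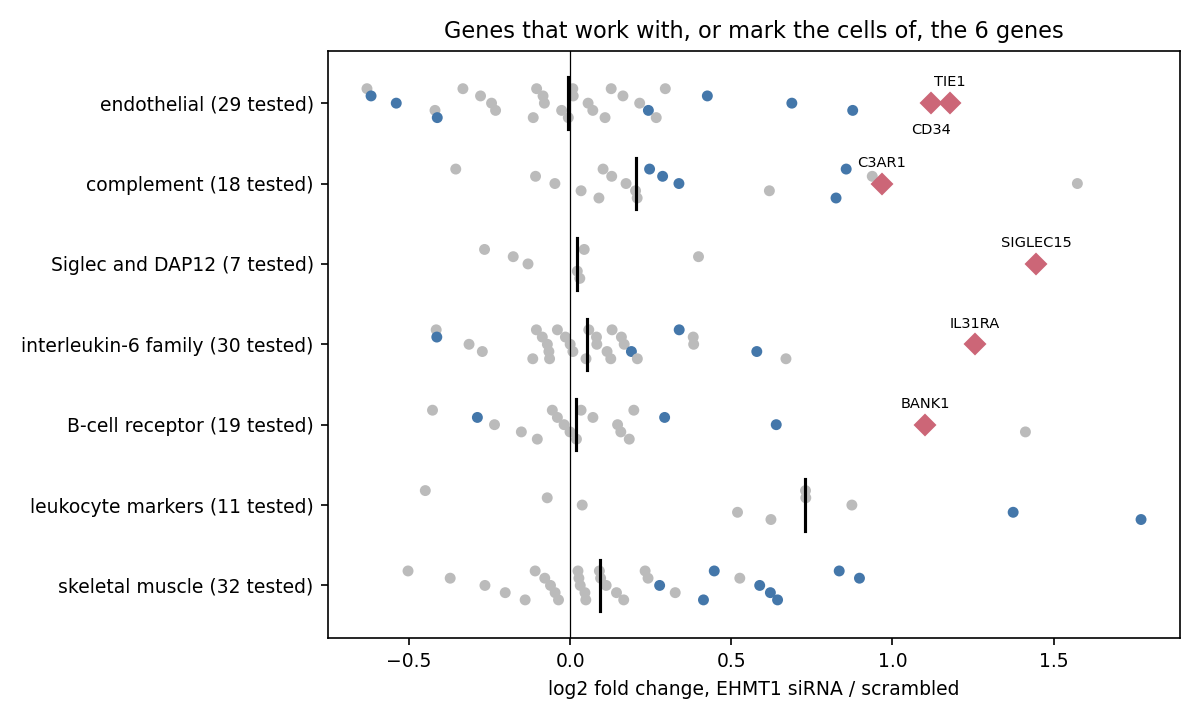
Log2 fold change (horizontal axis) of the tested genes of each list, in blue where the edgeR adjusted p was under 0.05 and in grey where not; black bars are list medians, vertical scatter within a row has no meaning, and CD53 (0 counts with scrambled siRNA) is not drawn. The 6 genes (diamonds, not counted in the lists) lie right of nearly all genes of their own list, which follows from choosing them for their rise. In the leukocyte row the median rests on 11 tested genes of 40.

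Genes next to the 6 on the chromosome mostly did not pass the test. The 2 nearest protein-coding genes on each side (GENCODE release 29) gave 24 neighbours. Of these 13 were tested, 2 rose (15.4%), 1 fell (7.69%) and the median log2 change was 0.03. Most tested genes anywhere did not pass either, with 5.81% risen and 6.54% fallen. The glucose transporter gene SLC2A3, second from C3AR1, was at 113.8 and 150.7 mean CPM (0.41, edgeR adjusted p = 0.000162). EPG5, an autophagy gene next to SIGLEC15, was at 33.7 and 40.8 (0.28, edgeR adjusted p = 0.0153). CDC20, a mitotic activator second from TIE1, was at 214.3 and 178.1 (-0.27, edgeR adjusted p = 0.0117). The calls of EPG5 and CDC20 were lost without EHMT1 siRNA replicate 1 or 2, and without scrambled replicate 1, 3 neighbours rose and 2 fell.

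With all 6 libraries, EPG5 alone of the genes directly beside the 6 passed the test. C1orf210, beside TIE1, had 0 counts in every library. CD46 and PLXNA2 on either side of CD34 had log2 changes of 0.13 and -0.11 (edgeR adjusted p = 0.240 and 0.302). FOXJ2 and NECAP1 beside C3AR1 were at 0.02 and 0.14 (0.854 and 0.246). Without scrambled replicate 1, NECAP1 (0.24, edgeR adjusted p = 0.0269) and PLXNA2 (-0.19, edgeR adjusted p = 0.0364) did pass. IL6ST lies next to IL31RA and DDX4, with 0 to 3 counts, on its other side. PPP3CA and SLC39A8 beside BANK1 were at 0.11 and 0.03 (0.241 and 0.898). SLC14A1, beside SIGLEC15, had 5, 0 and 2 counts with scrambled and 19, 8 and 4 with EHMT1 siRNA and was not tested.

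**Figure D4:**
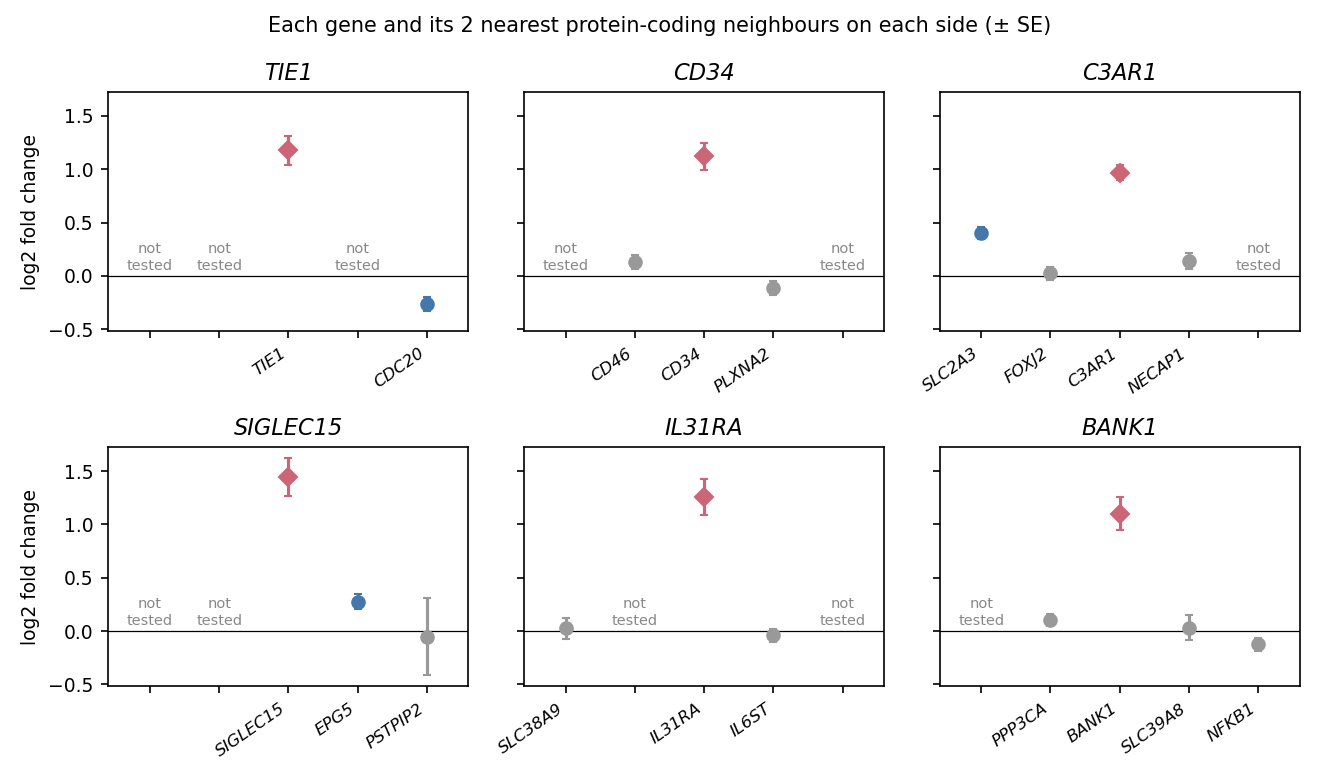
Log2 fold change ± SE (vertical axis) of each of the 6 genes (diamond) and its 2 nearest protein-coding neighbours on each side, in chromosome order and not to scale, with those not tested left unnamed; blue points had an edgeR adjusted p under 0.05. The neighbours that were tested lie between -0.27 and 0.41, all below the central gene, which was chosen because it rose.

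Likeness of pattern was measured as the root mean square difference between log2 CPM deviations from each gene's own mean over the 6 libraries. Among the 6 genes, C3AR1 and BANK1 were the most alike (0.069) and C3AR1 and SIGLEC15 the least (0.347). Of all other protein-coding genes tested, MYH15, a myosin heavy chain gene, was nearest both to BANK1 (0.036) and to C3AR1 (0.058). MYH15 had 512, 497 and 486 counts with EHMT1 siRNA against 291, 220 and 233. RFX8 was nearest to CD34 (0.078), IRAG1 to TIE1 (0.10), DOCK3 to IL31RA (0.11) and SNCB to SIGLEC15 (0.17). All of these pairs share libraries and were found by searching, so the distances describe these 6 libraries alone. The deviations contain the difference between the groups on which the 6 genes were chosen, so likeness in part restates a similar log2 change. C3AR1 and SIGLEC15, the least alike, had the smallest and largest log2 changes of the 6 (0.97 and 1.45).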

How the data were processed

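Poly-A RNA of RD cells was sequenced in 6 libraries, grouped by sample title. The authors deposited unnormalised gene counts for each library, laid out as STAR writes them. Among tools, the submitters' processing notes list STAR 2.5 and HTSeq 0.6.1, with CASAVA, bcl2fastq and DESeq2, and the build hg19. The identifiers are later than that build, so the files' own build is uncertain and RefSeq coordinates apply only to the promoter sequences. The unstranded column was used; reads naming no gene (20.0% to 21.2%) were left out. Without strand, overlapping genes cannot be told apart.

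The test was that of edgeR 4.0.16 (R 4.3.3) across all genes (filterByExpr, minimum count 10; TMM; robust quasi-likelihood F test on group; Benjamini-Hochberg over 18646 genes; threshold 0.05). The SE is the absolute log2 fold change over the square root of F. The fit was also tested on simulated data. Pairs of libraries of a group differed by more than sampling noise. Chi-square per degree of freedom was 8.95 to 21.2 for scrambled pairs and 2.99 to 3.38 for EHMT1 siRNA pairs. A gene at 0 counts may lie at up to 0.0641 to 0.0751 CPM (3 counts); floors cover counting error only.

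The 6 genes and the lists were chosen with earlier results of these data known. Named genes were the 6, EHMT1, EHMT2, preset partners and markers, all neighbours, up to 4 tested genes of each list with the smallest adjusted p, and the most alike gene; a few of these are not reported here. Alternatives were RLE and upper quartile factors, other filters, DESeq2 1.42.0, limma-voom (limma 3.58.1), a replicate block, each strand column, a threshold of 0.01 and leaving out each library.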

Additional observations from a re-analysis of the deposited data

How the results depend on the processing

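The log2 fold changes of the 6 genes stayed positive in every setting that gave a value. With 1 library left out they ran from 1.06 to 1.27 for TIE1, 1.04 to 1.17 for CD34, 0.92 to 1.02 for C3AR1, 1.27 to 1.68 for SIGLEC15, 1.17 to 1.30 for IL31RA and 1.05 to 1.19 for BANK1. The strand column that holds the minority of strand counts moved TIE1 to 1.61, C3AR1 to 0.64 and SIGLEC15 to 1.11, and IL31RA and BANK1 had too few counts there to be fitted. In that column 90 genes rose and 87 fell, and the counts risen and fallen were 1 and 0 for endothelial, 0 and 0 for B-cell receptor, interleukin-6 family and neighbouring genes, and 0 risen for complement, leukocyte and muscle genes; NRP1 turned to -0.11. At a threshold of 0.01, 492 genes rose and 525 fell. Without 1 library, risen genes numbered 452 to 1625 and fallen ones 484 to 1923, lowest on dropping EHMT1 siRNA replicate 2 and highest on dropping scrambled replicate 2.

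The counts within the lists are small, and several moved with the setting. Genes near the filter on low counts can enter any list through the group where they are high, which bears on its count and median. Libraries with the same replicate number in both groups deviated together little (correlations of 0.056, 0.015 and 0.025), so the numbers are not taken to pair them. With the replicate block 4 B-cell receptor genes rose and 2 fell, LYN among them (edgeR adjusted p = 0.0431), and 1 complement, 2 interleukin-6 family, 1 Siglec and 2 muscle genes fell. Upper quartile factors gave 4 risen B-cell receptor and 0 fallen interleukin-6 family genes. Fallen interleukin-6 family genes numbered 2 with no filter and 0 by limma-voom. Column 4 added 1 fallen complement and 1 fallen Siglec gene and ended the calls of NRP1, PIK3CD and C1S (edgeR adjusted p = 0.0966, 0.0536 and 0.0505), and DESeq2 1 fallen Siglec and 1 fallen muscle gene. Risen leukocyte markers were 1 by DESeq2 and 1 with at least 1 CPM in 3 libraries. With 1 library left out, the ranges were 1 to 4 risen and 0 to 1 fallen B-cell receptor genes, 1 to 5 and 0 to 1 complement genes, 2 to 7 risen endothelial genes, 1 to 5 and 0 to 1 interleukin-6 family genes, 0 to 1 fallen Siglec genes, 0 to 3 fallen muscle genes, and 1 to 3 and 0 to 2 neighbours. Of 39 called genes among those chosen by the naming rule, EHMT1 aside, 18 lost the call when some library was left out. Fits without 1 library rest on fewer libraries, and a lost call did not always come with a smaller estimate. The log2 change of CD55 was 0.253, 0.228 and 0.255 without EHMT1 siRNA replicates 1, 2 and 3, against 0.247. That of C1S moved from 0.83 to 0.61 without scrambled replicate 2. The cause of these changes was not tested. For genes under about 10 counts per library, depth limits what can be seen.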

Other observations

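In scrambled replicate 2, SIGLEC15 had 17 counts in column 3 and 39 in column 4 of the strand counts, against 1 and 84 in scrambled replicate 1 and 10 and 96 in scrambled replicate 3. In the EHMT1 siRNA libraries it had 18 and 192, 25 and 181, and 15 and 218. Without scrambled replicate 2 its log2 fold change was 1.27.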
